A study of Homo sapiens with 28 samples.

Results

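The cytosolic ribosomal protein genes described here are the 69 genes whose symbols carry the standard RPL or RPS names (or RPLP0, RPLP1, RPLP2 and RPSA) and whose abundance was at least 10 FPKM in all 28 RNA-seq libraries. They are 69 of 26475 genes listed, with 28 proteins of the small ribosomal subunit and 41 of the large subunit. FPKM is a read count divided by the length of the gene and by the mapped reads of the library. The genes were chosen by symbol and by their FPKM in these libraries, so a high level is not a result. Of 77 symbols that fitted the names, 8 fell below 10 FPKM in some library.

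Poly(A) RNA was sequenced from LNCaP cells, a human prostate cancer line that carries luminal prostate markers, in 2 experiments. The study asked how the acetyltransferases p300 and CBP take part in gene expression after loss of HOXB13, a prostate homeobox transcription factor. The knockdown series held 8 groups of 2 libraries, in this order of hairpins: shHOXB13+shp300/CBP, shHOXB13+shCBP, shHOXB13+shp300, shHOXB13, shCtrl+shp300/CBP, shCtrl+shCBP, shCtrl+shp300 and shCtrl. The CCS1477 series held 4 groups of 3 libraries, shHOXB13 CCS1477, shHOXB13 DMSO, shCtrl CCS1477 and shCtrl DMSO. In that series cells received 250 nM CCS1477, a bromodomain inhibitor of p300 and CBP, or DMSO for 48 h. HOXB13, p300 and CBP were each targeted by 1 hairpin, so an effect of a hairpin and an effect of losing its target cannot be told apart. The label shCtrl stands for a control hairpin vector, which every group without shHOXB13 carried.

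Luminal markers were detected throughout. The summed level of 7 luminal genes was 1123 to 6770 FPKM, against 1.55 to 18.3 FPKM for 4 fibroblast genes, 0 to 0.911 FPKM for 4 immune genes and 0.208 to 2.89 FPKM for 3 endothelial genes. Of the knockdown libraries, the 8 with shHOXB13 had 5.25 to 12.1 FPKM of HOXB13 and the 8 with shCtrl 43.2 to 87.6 FPKM. With CCS1477 or DMSO it was at 28.4 to 32.2 FPKM in shHOXB13 libraries and 110 to 147 FPKM in shCtrl libraries. EP300 ranged over 3.16 to 6.78 FPKM with shp300 and 5.19 to 11.5 FPKM without it, and CREBBP over 2.96 to 4.72 FPKM with shCBP and 4.72 to 8.92 FPKM without it, so the ranges overlapped for both genes. Mapped reads per library ran from 7458934 to 16338528.

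Ribosomal proteins are made in near equal amounts, and each ribosome carries a single copy of most of them. Their mRNAs are short, stable and among the most abundant in a growing cell. Most begin with a 5′ terminal oligopyrimidine tract, a C followed by a run of C or T, through which mTOR signalling and LARP1 control their translation, and MYC is known to raise their transcription. Bulk RNA cannot tell a lower level in every cell from a change in the makeup of the cells or in total RNA per cell.

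The start of the mRNA is the feature that the choice of genes did not use. A start site was matched in the RefSeq table (GRCh38.p14) for 55 of the 69 genes, and 42 of them (76.4%) began with C followed by at least 4 further C or T on the transcribed strand. The same form stood at the start of 1358 of 27243 other genes (4.98%) and of 184 of 2266 other genes with at least 10 FPKM in every library (8.12%). The sequences below run from 10 bases before the start site to 19 bases after its first base, with the tract in capitals, and they are shown for genes that the comparisons turn on. RPS6 lies at chr9:19380217-19380246 (minus strand), RPS3 at chr11:75399508-75399537 (plus), RPSA at chr3:39406710-39406739 (plus), RPS18 at chr6:33272065-33272094 (plus), RPL37A at chr2:216498834-216498863 (plus), RPL24 at chr3:101686699-101686728 (minus), RPS19 at chr19:41860245-41860274 (plus) and RPL41 at chr12:56116623-56116652 (plus).
RPS6: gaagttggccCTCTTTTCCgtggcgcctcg
RPS3: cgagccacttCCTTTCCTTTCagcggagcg
RPSA: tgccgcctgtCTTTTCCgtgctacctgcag
RPS18: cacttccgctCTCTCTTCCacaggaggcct
RPL37A: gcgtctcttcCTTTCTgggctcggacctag
RPL24: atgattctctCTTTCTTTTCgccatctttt
RPS19: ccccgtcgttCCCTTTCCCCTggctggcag
RPL41: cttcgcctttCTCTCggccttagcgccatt

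The tract ran over 5 bases in RPL41 and 11 bases in RPS3 and RPS19. The listed start of 13 genes lacked this form, among them RPL10A (chr6:35468391-35468420, plus) and RPS28 (chr19:8321486-8321515, plus), which have no capitals here. In both of these a run of C and T begins within a few bases after the listed start. Their class thus rests on the exact base listed, and they are not shown to lack the tract.
RPL10A: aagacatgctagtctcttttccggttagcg
RPS28: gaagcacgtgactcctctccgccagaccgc

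The genes covered a wide range of levels. The highest means over the 28 libraries were those of RPL37A (1593 ± 706 FPKM, SD), of the stalk protein RPLP1 (1384 ± 528) and of RPL8 (1198 ± 414), both parts of the large subunit. The lowest were those of RPL39 at the exit tunnel (27.5 FPKM), RPS9 (37.4 FPKM) and RPL22 (40.8 FPKM). FPKM is per length, and the length divided by ran from 351 to 7144 bases, with RPS9 at the long end. Across the 69 genes, the length and the median log2 FPKM had Pearson's r of -0.51 and Spearman's rho of -0.54, over the 26 libraries left without a pair described below. The share of the mRNA copied elsewhere in the genome, also described below, and that median had Pearson's r of -0.44 and Spearman's rho of -0.44. RPL39 had 93.8% of its mRNA windows copied, and its mean includes 123 and 89.4 FPKM in that pair. A low FPKM is therefore not read as a low mRNA level. Just inside the threshold stood RPS27, whose lowest value was 10.1 FPKM, and RPL39, whose lowest was 11.7 FPKM. Just outside it stood RPS3A at 4.86 FPKM and RPL9 at 4.09 FPKM. The other symbols left out were RPL7, RPL17, RPL21, RPL36A, RPS10 and RPS26.

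The ribosomal protein genes took a smaller share of the summed FPKM in every shHOXB13 library than in any shCtrl library. In the knockdown series the share was 7.82 and 8.88% in shHOXB13+shp300/CBP, 9.25 and 9.73% in shHOXB13+shCBP, 9.07 and 8.84% in shHOXB13+shp300 and 8.54 and 8.35% in shHOXB13 libraries. It was 15.5 and 14.5% in shCtrl+shp300/CBP, 14.6 and 14.5% in shCtrl+shCBP, 17.1 and 18.3% in shCtrl+shp300 and 16.6 and 18.0% in shCtrl libraries. The groups without shHOXB13 were thus well apart from those with it, whatever the second hairpin.

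In the CCS1477 series the share was 8.44, 8.40 and 8.52% in shHOXB13 CCS1477 libraries and 9.08, 9.14 and 8.81% in shHOXB13 DMSO libraries. It was 16.9, 11.5 and 11.8% in shCtrl CCS1477 libraries and 16.4, 11.9 and 11.6% in shCtrl DMSO libraries. The first library of each shCtrl group stood above the other 2, and the shHOXB13 libraries lay below all 6.

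**Figure D1:**
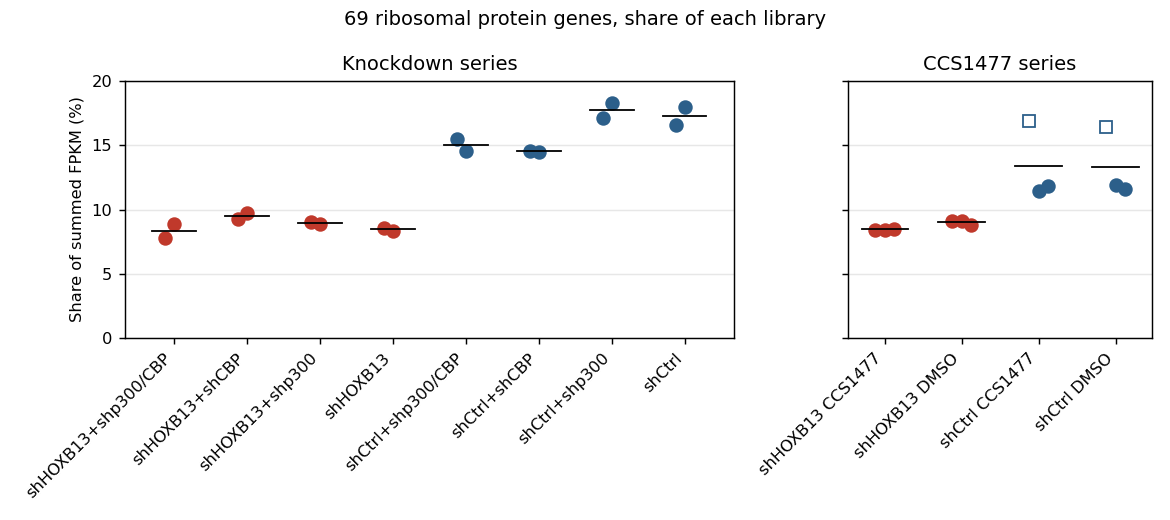
Share of the summed FPKM of each library (percent, y axis from 0) taken by the 69 ribosomal protein genes, by group, in the knockdown series (left) and the CCS1477 series (right). Points are libraries, with shHOXB13 groups in red and shCtrl groups in blue, black lines are group means, and open squares mark replicate 1 of shCtrl CCS1477 and shCtrl DMSO. The shHOXB13 libraries lie between 7.82 and 9.73%, below all shCtrl libraries.

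Those 2 libraries (shCtrl DMSO replicate 1 and shCtrl CCS1477 replicate 1) differed from the other 2 of their group by an amount that varied between genes. RPS27, of the small subunit, was at 1329 FPKM in shCtrl CCS1477 replicate 1, against 18.4 and 19.7 FPKM in replicates 2 and 3, and at 1155 FPKM in shCtrl DMSO replicate 1, against 22.0 and 22.2 FPKM. RPS28 was at 1901 FPKM against 123 and 129 FPKM in shCtrl CCS1477 libraries, and at 1366 FPKM against 116 and 128 FPKM in shCtrl DMSO libraries. RPL7, which fell short of the threshold, was at 559 and 612 FPKM in the 2 libraries and at most 2.01 FPKM in the other 26. RPL9, RPL21, RPS3A and RPS26 were also high only there, and RPL17 was lower there than in the other shCtrl libraries of that series, at 1.23 and 0.957 FPKM. By contrast RPL35A was at 947 and 940 FPKM there, against 1016 to 1109 FPKM in the other 4.

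The difference was larger in genes whose mRNA is copied elsewhere in the genome. Many ribosomal protein mRNAs have processed pseudogenes with near identical sequence, and reads from a copied stretch cannot be placed at a single site. For each gene, the share of 50-base windows of its reference mRNA (GENCODE v44, GRCh38) found again outside the gene was counted. In the 21 genes with under 10% of windows copied, the log2 difference of replicate 1 from replicates 2 and 3, averaged over the 2 groups, had a median of 0.06 and a range of -0.18 to 0.43. In 28 genes with 10 to 50% it was 0.60 (-0.01 to 3.70), and in 20 genes with 50% or more it was 1.42 (0.28 to 5.91). The median over all 15907 genes tested was -0.06.

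Over the 69 genes, the copied share and the difference had Pearson's r of 0.69 and Spearman's rho of 0.78. These are genes of the same libraries and not replicates. The 21 genes with few copies took 5.09% of the summed FPKM of shCtrl CCS1477 replicate 1 and 4.94% of shCtrl DMSO replicate 1, against 5.13 to 5.35% in the other 4 shCtrl libraries. The same-numbered shHOXB13 libraries did not stand apart, as RPS28 was at 94.9 FPKM in replicate 1 of shHOXB13 CCS1477 and 81.6 FPKM in replicate 1 of shHOXB13 DMSO. Results of the CCS1477 series are therefore given with and without the 2 libraries. How they were handled in mapping is not given in the sources used here, and its part in the difference was not tested.

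**Figure D2:**
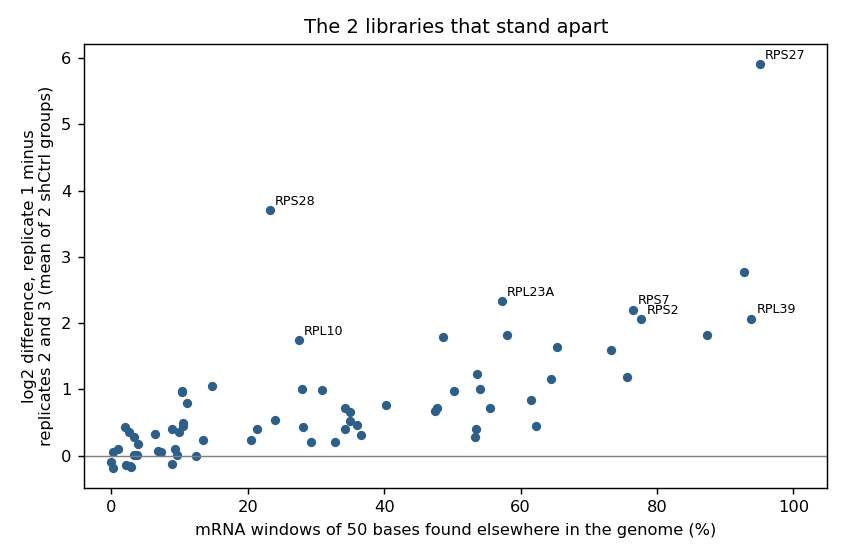
Log2 difference of replicate 1 from replicates 2 and 3 in the shCtrl groups of the CCS1477 series (y axis, mean of the 2 groups) against the percent of 50-base windows of the mRNA found elsewhere in the genome (x axis), 1 point a gene, 69 genes. Genes with under 10% of windows copied lie between -0.18 and 0.43, and RPS27 lies highest at 5.91.

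With HOXB13 knockdown alone, all 69 ribosomal protein genes fell. RPS6, the small-subunit protein phosphorylated by the S6 kinases, was at 708 and 624 FPKM in shHOXB13 libraries and 2117 and 1824 FPKM in shCtrl libraries. RPSA, known also as the laminin receptor, was at 54.8 and 44.7 FPKM in shHOXB13 and 174 and 191 FPKM in shCtrl libraries. RPS3, at the mRNA entry of the small subunit, was at 92.9 and 76.1 FPKM in shHOXB13 and 294 and 293 FPKM in shCtrl libraries. In each of these genes both shHOXB13 libraries lay far below both shCtrl libraries. The percent of mapped reads that fell in genes moved with the groups, at 68.8 and 66.3% in shHOXB13 and 74.3 and 72.2% in shCtrl libraries, and FPKM is divided by all mapped reads. Over the 4 arms on each side it was 52.7 to 68.8% with shHOXB13 and 64.7 to 74.3% with shCtrl. Scaled to the same summed FPKM, which does not use the mapped reads, 67 of 69 genes were called lower, with a median of -1.05. The share of all genes under this scaling is not given here, so this count alone does not set these genes apart.

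The call in each comparison is an adjusted p under 0.05 in limma on log2(FPKM + 0.1), with Benjamini-Hochberg adjustment over all genes tested. By this call 69 of 69 genes were lower in shHOXB13 than in shCtrl cells, where 30.8% of all 17678 genes tested were lower. None was called higher, nor at an unadjusted p under 0.05 (0 genes), where 8.45% of all genes were called higher. The log2 change was -1.88 ± 0.18 (SE, adjusted p = 1.3e-05) for RPSA, -1.82 ± 0.16 (adjusted p = 7e-06) for RPS18 and -1.80 ± 0.15 (adjusted p = 5e-06) for RPS3, the 3 that fell most. The smallest falls were those of RPS28 (-0.51 ± 0.16, adjusted p = 0.026) and RPL41, the shortest ribosomal protein (-0.65 ± 0.23, adjusted p = 0.045).

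The changes were close together. Their median was -1.26 with an SD of 0.29 over genes, against a median of -0.33 and an SD of 0.95 over all genes tested, and a median of -0.15 and an SD of 0.63 over the 2879 other genes with at least 10 FPKM in every library. Of those, the 300 with a deposited length under 1 kb had a median of -0.14. The median was -1.29 for the small subunit and -1.25 for the large subunit. Genes with few copied windows had a median of -1.26, and those with 50% or more of -1.25. Relative to the median of all genes the ribosomal protein genes were lower by 0.92 on the log2 scale. When libraries were scaled by median-of-ratios, which set the median of all genes to 0.00, the members' median was -0.85, and 62 of 69 were called lower where 15.6% of 17725 genes were.

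Other genes of the same large-subunit and small-subunit roles stood within that range. The proteins RPL5 and RPL11, which as free proteins bind MDM2, changed by -1.54 ± 0.17 and -1.37 ± 0.16 (limma adjusted p = 4.1e-05 and 5.7e-05). RPLP0, the base of the stalk, changed by -1.28 ± 0.18 (limma adjusted p = 0.00023). RPS27A, made as a fusion to ubiquitin, changed by -1.20 ± 0.17 (limma adjusted p = 0.00023). In deposited FPKM, over the 4 arms on each side, all 8 shHOXB13 libraries lay below all 8 shCtrl libraries in 61 of 69 genes (88.4%). The same held for 17.8% of all genes tested. The 8 exceptions were RPL14, RPL23A, RPL24, RPL41, RPS13, RPS16, RPS25 and RPS28.

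**Figure D3:**
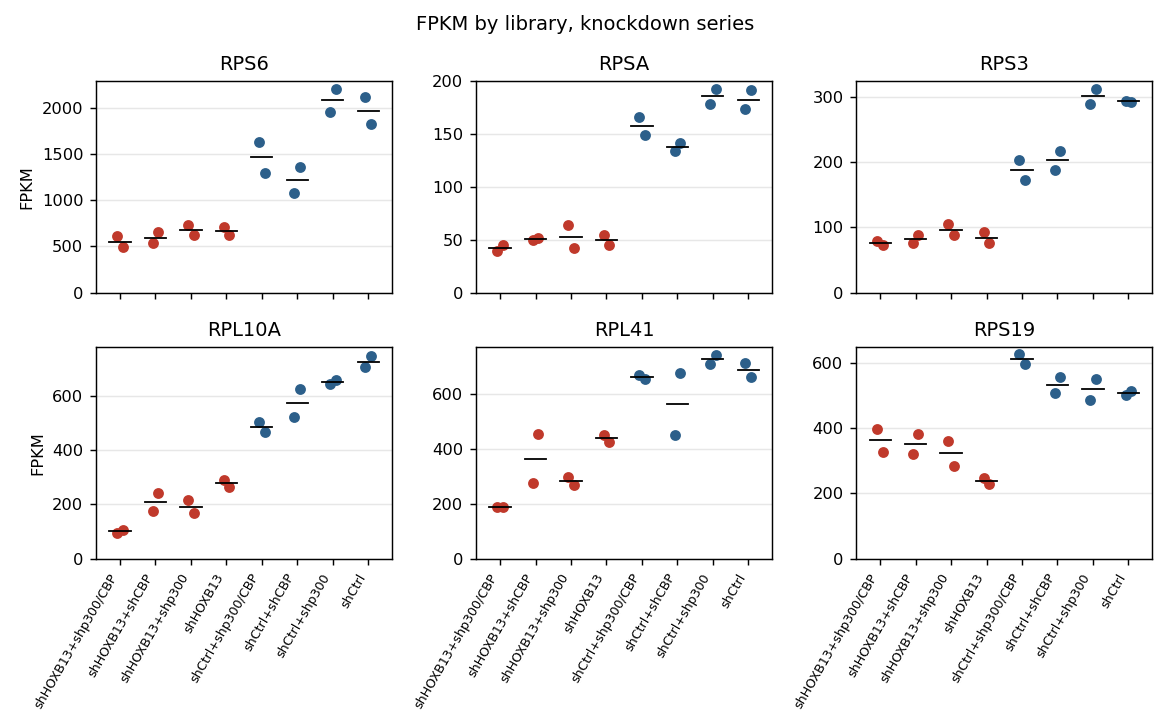
FPKM of RPS6, RPSA, RPS3, RPL10A, RPL41 and RPS19 in the knockdown series (y axes from 0). Points are libraries, 2 a group, black lines are group means, red marks shHOXB13 groups and blue shCtrl groups. RPS6, RPSA and RPS3 lie lower in all red groups than in all blue ones, RPL10A and RPL41 are lowest in shHOXB13+shp300/CBP, and RPS19 is higher there than in shHOXB13.

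In the CCS1477 series the same comparison, shHOXB13 DMSO against shCtrl DMSO, gave a smaller fall. RPS3 was at 113, 117 and 97.7 FPKM in shHOXB13 DMSO and 260, 255 and 243 FPKM in shCtrl DMSO libraries, and RPS6 at 957, 1031 and 846 FPKM in shHOXB13 DMSO and 1446, 1439 and 1328 FPKM in shCtrl DMSO libraries. RPL5 was at 227, 226 and 199 FPKM in shHOXB13 DMSO and 599, 410 and 411 FPKM in shCtrl DMSO libraries. None of these groups overlapped, and the shCtrl value of RPL5 in replicate 1 was above the other 2.

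In that comparison 43 of 69 genes were called lower, where 42.4% of 15907 genes were, and none higher (0 at an unadjusted p under 0.05 in limma), where 15.2% were. RPS3 changed by -1.21 ± 0.08 (limma adjusted p = 1.4e-07), RPSA by -1.11 ± 0.34 (limma adjusted p = 0.016) and RPL5 by -1.10 ± 0.14 (limma adjusted p = 3.8e-05), the largest called changes. The median was -0.62, against -0.33 for all genes and 0.03 for the other genes at 10 FPKM or more. Without the 2 libraries, 62 of 69 genes were lower, where 44.9% of 15613 genes were, and 0 were higher, where 15.8% were and where limma at an unadjusted p under 0.05 called 0. The median was then -0.42 and that of all genes -0.34.

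Relative to the median of all genes, the median of the ribosomal protein genes was lower by 0.29 on the log2 scale with all libraries and by 0.08 without the 2. With median-of-ratios scaling, which brought the median of all genes to -0.01, 6 genes were lower (26.0% of all genes) and 1 higher (27.3%). Leaving out the 2 libraries and scaling by median-of-ratios gave 18 lower (27.7%) and 6 higher (29.2%) and a median of -0.07, with the median of all genes at -0.02. RPS3 changed by -1.19 ± 0.07 without the 2 libraries (limma adjusted p = 4.3e-07), RPL5 by -0.92 ± 0.07 (limma adjusted p = 2.1e-06) and RPL12, at the base of the stalk, by -0.80 ± 0.07 (limma adjusted p = 5.3e-06), in deposited FPKM.

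By library, in deposited FPKM, all 6 shHOXB13 libraries lay below all 6 shCtrl libraries in 58 of 69 genes, as in 22.7% of all genes tested. They lay below the other 4 shCtrl libraries in 60 genes, as in 28.5%. These counts were not made after median-of-ratios scaling, with which 6 genes were called lower (26.0% of all genes), or 18 (27.7%) without the 2 libraries. The 21 genes with few copied windows had a median of -0.38 with all libraries and -0.41 without the 2, and the 20 with 50% or more had medians of -0.99 and -0.47. The median of the genes with few copies thus moved less with the 2 libraries than that of the genes with many.

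The 2 series share no library. Leaving out the 2 libraries, 62 of 69 genes were called lower with shHOXB13 in both, where 29.0% of 15506 genes tested in both were. With all libraries the number was 43. These counts are in deposited FPKM. With median-of-ratios scaling 62 genes were lower in the knockdown series, but 18 lower and 6 higher in the CCS1477 series without the 2 libraries, so at most 18 could be lower in both. Across the 69 genes, the changes in the 2 series had Pearson's r of 0.58 and Spearman's rho of 0.58 without the 2 libraries, and 0.27 and 0.34 with them. RPS3 and RPSA were among the larger falls in both. RPL41 and RPS13 were among the smaller falls in the knockdown libraries. Under DMSO without the 2 libraries they changed by -0.02 ± 0.09 and 0.08 ± 0.07, and neither was called. RPL26 changed by -1.76 ± 0.20 in the knockdown libraries, and by -0.29 ± 0.08 under DMSO without the 2 libraries.

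**Figure D4:**
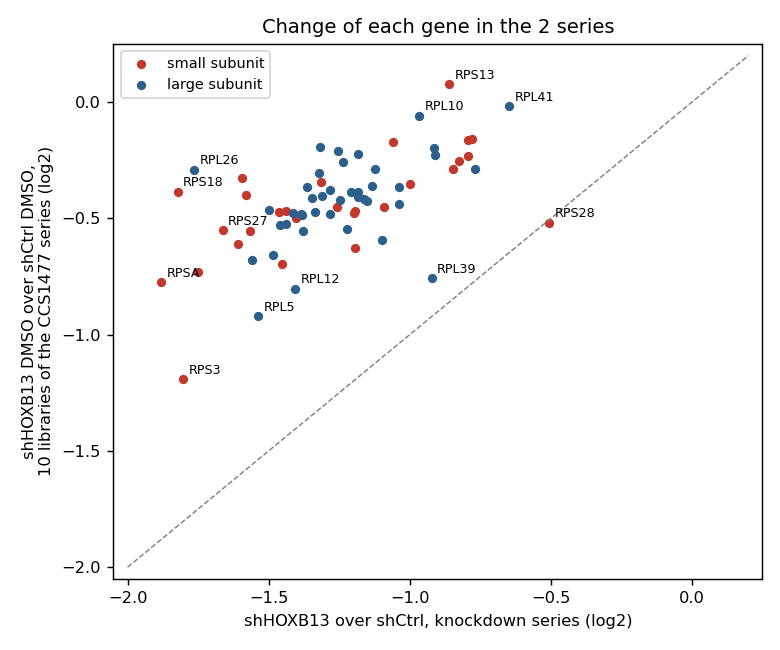
Log2 change of each of the 69 genes, shHOXB13 over shCtrl in the knockdown series (x axis) and shHOXB13 DMSO over shCtrl DMSO in the CCS1477 series without the 2 libraries that stand apart (y axis), with small-subunit genes in red, large-subunit genes in blue and a dashed line of equal change. All but RPS28 lie above the line, and Pearson's r over the genes is 0.58.

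With p300 and CBP knocked down together in shHOXB13 cells, 20.3% of the ribosomal protein genes were called lower and 2.90% higher. Of all genes, 16.2% were lower and 10.4% higher. The share lower is near that of all genes and is not read as a result about the 69, and the genes below are single examples. RPL10A, of the large subunit, was at 95.9 and 106 FPKM in shHOXB13+shp300/CBP and 292 and 266 FPKM in shHOXB13 libraries. RPL41 was at 187 and 189 FPKM in shHOXB13+shp300/CBP and 453 and 427 FPKM in shHOXB13 libraries. RPS19, mutated in Diamond-Blackfan anaemia, was at 398 and 328 FPKM in shHOXB13+shp300/CBP and 248 and 230 FPKM in shHOXB13 libraries. These groups did not overlap. HOXB13 also changed between them, by -0.80 ± 0.17 (limma adjusted p = 0.0051).

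In shHOXB13 cells, shp300/CBP had 14 genes called lower and 2 called higher of 69, where 16.2% of all genes tested were lower and 10.4% higher. RPL10A changed by -1.46 ± 0.18 (limma adjusted p = 0.00025), RPL41 by -1.23 ± 0.23 (limma adjusted p = 0.0029) and RPS12 by -0.93 ± 0.21 (limma adjusted p = 0.0064). RPS19 changed by 0.60 ± 0.17 (limma adjusted p = 0.022) and RPS2 by 0.57 ± 0.16 (limma adjusted p = 0.022). The median was -0.28, with all genes at 0.00 and the other genes at 10 FPKM or more at -0.29. Scaling every library to the same summed FPKM gave 12 lower and 8 higher. No share of all genes is given for this scaling, so these counts show only how far the calls moved. Leaving out shHOXB13+shp300/CBP replicate 1 gave 8 lower and 0 higher, shHOXB13+shp300/CBP replicate 2 gave 8 and 2, shHOXB13 replicate 1 gave 2 and 0, and shHOXB13 replicate 2 gave 7 and 0.

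No gene was called for either single hairpin in shHOXB13 cells. For shp300 none was called, where 3.50% of all genes were higher and 3.44% lower. At an unadjusted p under 0.05 limma gave 2 higher and 3 lower, where 22.5% of all genes passed in either direction. For shCBP none was called, where 0.402% were higher and 1.13% lower. At an unadjusted p under 0.05 limma gave 4 higher and 1 lower, where 20.1% of all genes passed in either direction. The medians were 0.03 for shp300 and 0.01 for shCBP.

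In shCtrl cells, CBP knockdown and the double knockdown were followed by falls, and p300 knockdown was not called for any gene. RPL24 was at 280 and 345 FPKM in shCtrl+shCBP and 585 and 574 FPKM in shCtrl libraries, and RPS13 at 426 and 478 FPKM in shCtrl+shCBP and 779 and 859 FPKM in shCtrl libraries. RPL23A, beside the exit tunnel, was at 55.2 and 43.7 FPKM in shCtrl+shp300/CBP and 102 and 122 FPKM in shCtrl libraries. In all 3 genes the groups were apart. HOXB13 itself was lower in the same arms, with a log2 change of -0.87 ± 0.17 with shCBP (limma adjusted p = 0.0086) and -0.81 ± 0.17 with shp300/CBP (limma adjusted p = 0.0064), and changed by -0.24 ± 0.17 with shp300 (limma adjusted p = 0.56). Its part in these falls was not tested.

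With shCBP in shCtrl cells, 18 genes were lower, where 8.09% of all genes were, and none higher, where 4.14% were and limma at an unadjusted p under 0.05 gave 0. RPL24 changed by -0.90 ± 0.18 (limma adjusted p = 0.0094), RPS13 by -0.86 ± 0.18 (limma adjusted p = 0.011) and RPL35 by -0.76 ± 0.18 (limma adjusted p = 0.019). The median was -0.44, with all genes at -0.11. A replicate block left 10 lower, and a fit of these groups alone left 6, both given without the share of all genes. Without shCtrl+shCBP replicate 1 or shCtrl replicate 1 the count was 0, without shCtrl replicate 2 it was 1, and without shCtrl+shCBP replicate 2 it was 8.

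With shp300/CBP in shCtrl cells, 13 genes were lower, where 9.40% of all genes were, and none higher, where 8.90% were and limma at an unadjusted p under 0.05 gave 0. RPL23A changed by -1.18 ± 0.16 (limma adjusted p = 0.00061), RPS16 by -0.82 ± 0.19 (limma adjusted p = 0.011) and RPS13 by -0.71 ± 0.18 (limma adjusted p = 0.015). The median was -0.36, with all genes at 0.00 and the other genes at 10 FPKM or more at -0.07. Median-of-ratios scaling gave 28 lower and a replicate block 7. The count was 7 without shCtrl+shp300/CBP replicate 1, 1 without shCtrl+shp300/CBP replicate 2, 3 without shCtrl replicate 1 and 1 without shCtrl replicate 2, which also gave 1 higher. With shp300 none was called, where 1.05% of all genes were higher and 2.19% lower. At an unadjusted p under 0.05 limma gave 1 higher and 1 lower, where 16.2% of all genes passed in either direction. Without shCtrl replicate 2, 1 was called higher.

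The change by shp300/CBP was then compared between shHOXB13 and shCtrl cells. RPL41 differed, its change being lower by 1.17 ± 0.33 on the log2 scale in shHOXB13 than in shCtrl cells (limma adjusted p = 0.05 as rounded, and under the threshold). It was the sole gene of 69 called lower, where 5.59% of all genes were, and none was called higher, where 2.54% were. At an unadjusted p under 0.05 limma gave 6 higher and 2 lower, where 23.2% of all genes passed in either direction. The call of RPL41 was lost with no filter on low values, with a replicate block and without any 1 of the 8 libraries compared.

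**Figure D5:**
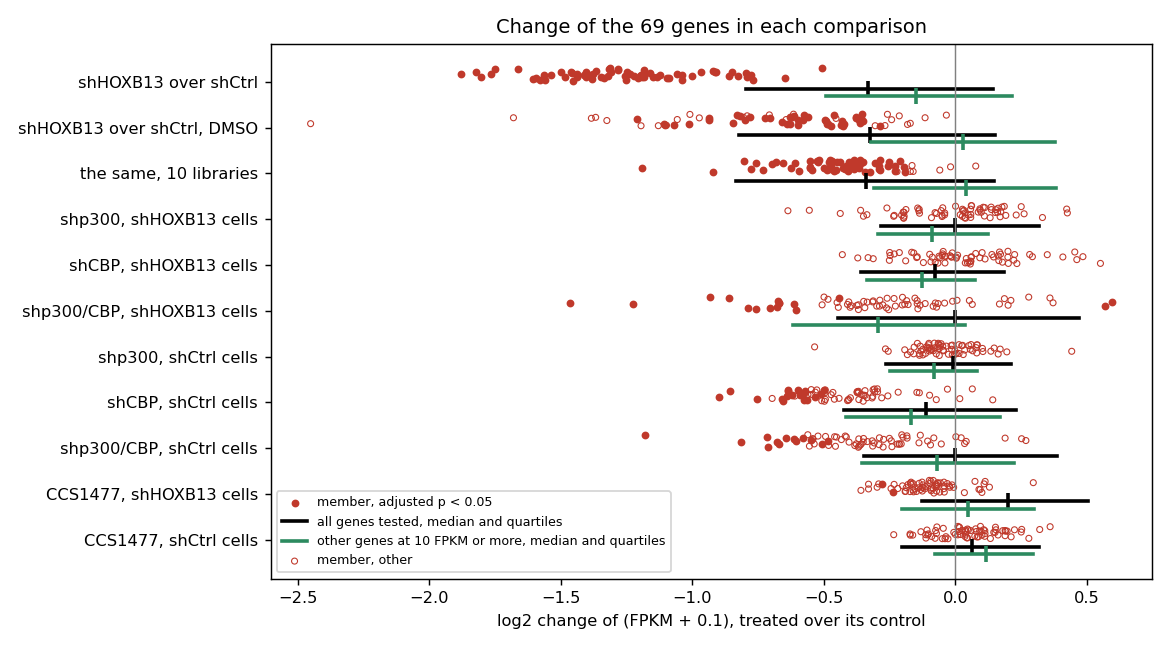
Log2 change of each of the 69 genes (red, filled at adjusted p under 0.05 in limma) in 11 comparisons, each the treated group over its control, with the median and quartiles of all genes tested (black) and of other genes at 10 FPKM or more (green). The rows labelled DMSO and 10 libraries are shHOXB13 DMSO over shCtrl DMSO with all 12 libraries and with the 10 left without the 2 that stand apart. All 69 genes lie below 0 in the top row, where they are at -1.88 to -0.51.

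The number of ribosomal protein genes called with CCS1477 in shHOXB13 cells moved with the libraries in the fit and with the scaling, between 0 and 61 lower. RPL35A, of the large subunit, was at 636, 665 and 666 FPKM in shHOXB13 CCS1477 and 821, 795 and 774 FPKM in shHOXB13 DMSO libraries, and RPL37 at 214, 231 and 228 FPKM in shHOXB13 CCS1477 and 262, 268 and 264 FPKM in shHOXB13 DMSO libraries. The groups did not overlap in either.

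In shHOXB13 cells these were the only 2 genes called lower in the fit of all 12 libraries, where 10.4% of all genes were, and none was higher, where 29.2% were and limma at an unadjusted p under 0.05 gave 0. RPL35A changed by -0.28 ± 0.10 (limma adjusted p = 0.044) and RPL37 by -0.24 ± 0.08 (limma adjusted p = 0.032). Without shHOXB13 DMSO replicate 3 there were 2 such calls, and without any other 1 of these 6 libraries 0. The median was -0.10 with all genes at 0.20. A fit of these 2 groups alone gave 16 lower, a count given without the share of all genes, so it shows only how far the calls moved. Without the 2 shCtrl libraries that stand apart, which are in neither group, 16 genes were lower, where 13.0% of all genes were. None was higher, where 35.2% were. At an unadjusted p under 0.05 limma gave 1 higher and 25 lower, where 54.6% of all genes passed in either direction. Median-of-ratios scaling, which brought the median of all genes to 0.01, gave 20 lower (19.0% of all genes), and with the 2 libraries left out as well 61 lower (23.5%).

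In shCtrl cells CCS1477 had none called, where 15.4% of all genes were higher and 9.91% lower. At an unadjusted p under 0.05 limma gave 2 higher and 0 lower, where 36.8% of all genes passed in either direction. Without the 2 libraries 3 were higher, where 14.9% of all genes were, and 1 lower, where 8.92% were. RPL28 then changed by 0.33 ± 0.08 (limma adjusted p = 0.012), RPL36 by 0.27 ± 0.08 (limma adjusted p = 0.025), RPS15 by 0.27 ± 0.08 (limma adjusted p = 0.04) and RPL22 by -0.29 ± 0.06 (limma adjusted p = 0.0097). With the 2 libraries kept and the replicate number as a block in a fit of these groups, 4 were higher and 1 lower. For that fit no share of all genes is given. Without shCtrl DMSO replicate 1 alone 2 were higher, and without shCtrl CCS1477 replicate 1 alone 1 was lower.

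The difference between the effects of CCS1477 in shHOXB13 and in shCtrl cells had none called, where 9.10% of all genes were higher and 4.15% lower. At an unadjusted p under 0.05 limma gave 0 higher and 3 lower, where 28.8% of all genes passed in either direction. Without the 2 libraries RPS7, RPL24 and RPL35 were lower, where 5.42% of all genes were, and none higher, where 10.3% were. RPS7 then changed by -0.36 ± 0.08 (limma adjusted p = 0.019). At an unadjusted p under 0.05 limma gave 1 higher and 15 lower, where 31.2% of all genes passed in either direction.

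The spread of a gene was taken as the SD over the 12 groups of its log2 FPKM relative to the median of the 69 genes, and the median SD was 0.26. Among the most variable were RPS27, RPS28 (0.95), RPL23A (0.49) and RPL38 (0.49). RPS27, RPS28 and RPL23A were raised in the 2 libraries that stand apart, where RPL23A was at 400 and 355 FPKM, against 70.6 to 80.0 FPKM in the other 4 shCtrl libraries. RPL38 ran from 437 to 1320 FPKM and was not raised in this way.

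Genes of related roles, chosen as lists, moved with them to differing degrees. The 14 listed translation genes with a terminal oligopyrimidine mRNA were all lower with shHOXB13 in the knockdown series (median -1.44), among them GAS5 (-1.97 ± 0.14, limma adjusted p = 1.7e-06), a host of small nucleolar RNAs, and EIF3E (-1.77 ± 0.17, limma adjusted p = 1.5e-05), a subunit of an initiation factor. Of all genes 30.8% were lower in that comparison. In the CCS1477 series 11 of the 14 were lower (median -0.92), where 42.4% of all genes were. Without the 2 libraries 13 were lower (median -0.64), where 44.9% of all genes were. GNB2L1, the gene now named RACK1, of a small-subunit scaffold, changed by -1.64 ± 0.18 (limma adjusted p = 4.4e-05) in the knockdown series. FAU, which encodes a ribosomal protein fused to a ubiquitin-like protein, changed by -0.41 ± 0.17 (limma adjusted p = 0.078).

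The mitochondrial ribosomal proteins, whose ribosome is separate, gave 29 of 77 lower and 1 higher with shHOXB13 in the knockdown series, where 30.8% of all genes were lower and 8.45% higher. Their median of -0.33 was that of all genes. In the CCS1477 series 23 were lower and 6 higher, where 42.4% and 15.2% of all genes were. With shp300/CBP in shHOXB13 cells 41 of 77 were lower (median -0.54), where 16.2% of all genes were. The 8 paralogs outside the rule gave 2 lower and none higher with shHOXB13 in the knockdown series, where 30.8% and 8.45% of all genes were. Under DMSO, with all libraries, RPL7L1, RPL22L1 and RPL26L1 were called lower, where 42.4% of all genes were. RPL36AL (0.35 ± 0.09, limma adjusted p = 0.0045) and RPS27L (0.65 ± 0.06, limma adjusted p = 4.1e-06) were called higher, where 15.2% of all genes were.

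Of 12 genes that control growth, 4 were lower and 1 higher with shHOXB13 in the knockdown series, and 6 lower and 4 higher in the CCS1477 series. Of all genes 30.8% were lower and 8.45% higher in the first comparison, and 42.4% lower and 15.2% higher in the second, so with 12 genes these counts are not read as a result about the list. MYC changed by -1.36 ± 0.21 (limma adjusted p = 0.00043) in the knockdown libraries. Under DMSO, without the 2 libraries, its change was -1.48 ± 0.10 (limma adjusted p = 5.4e-07). With shp300/CBP, MYC changed by -1.51 ± 0.21 (limma adjusted p = 0.00056) in shHOXB13 cells and -1.50 ± 0.21 (limma adjusted p = 0.00073) in shCtrl cells. The medians of the ribosomal protein genes there were -0.28 and -0.36. With CCS1477 in shHOXB13 cells MYC changed by -0.68 ± 0.09 (limma adjusted p = 0.0001), and the median of the ribosomal protein genes was -0.10. RPS6KB2, an S6 kinase, changed by 1.75 ± 0.12 (limma adjusted p = 1.2e-06) in the knockdown libraries and by 1.51 ± 0.10 (limma adjusted p = 7.2e-07) under DMSO, again without the 2 libraries. In the same comparisons MTOR changed by 0.11 ± 0.12 and 0.39 ± 0.07, and MLST8 by -0.71 ± 0.14 and -0.58 ± 0.08. LARP1 changed by -0.32 ± 0.12 and -0.68 ± 0.06, and EIF4EBP1 by -1.59 ± 0.17 and -1.75 ± 0.06. MTOR and LARP1 were not called in the knockdown libraries (limma adjusted p = 0.53 and 0.053). The part of these genes in the change of the ribosomal protein genes was not tested.

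By the form of the start, no test was made. In the knockdown series the 42 with a terminal oligopyrimidine start had a median log2 change with shHOXB13 of -1.24 and the 13 with another start -1.32. Outside them, 757 tested genes with such a start had a median of -0.47, and 11152 with another start -0.34. A match of these letters is a description of the sequence, and the split rests on the exact base listed as the start.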

How the data were processed

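Counts of reads were turned into FPKM by the authors before the files were deposited. Reads were aligned to GRCh38 (hg38) with STAR 2.6.0 per the submitters' notes, assigned to genes with strand ignored, and scaled by the length of each gene and the mapped total. Genes that overlap, lie antisense or have near identical copies are therefore uncertain. Multiplying the deposited FPKM by length and depth, both recovered from the values, returned whole reads for 100% of values (tolerance 0.05). The fewest reads behind a member was 28 and the median 3755. The study tested counts, which were not used here.

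Genes with at least 0.1 FPKM in 2 (knockdown) or 3 (CCS1477) libraries were tested as log2(FPKM + 0.1) in limma 3.58.1 (R 4.3.3) with a mean-dependent prior, 1 fit a series, and Benjamini-Hochberg adjustment. Fold changes are on that scale. The fit was tested on simulated data in which a small set of genes changed, equally up and down. With shHOXB13 many genes changed and most of those called were lower, so that test cannot show how the fit performs there. Tables used Python 3.11.15 and pandas 2.3.3, and figures matplotlib 3.10.9. Replicates are biological duplicates or triplicates per the study. Deviations of same-numbered shCtrl DMSO and shCtrl CCS1477 libraries from their group means had correlations over genes of 0.68, 0.41 and 0.40. Replicate 1 stands apart in both groups and so shifts the deviations of replicates 2 and 3 too. These correlations therefore cannot show a pairing by number. That pair of groups was also fitted with the number as a block. Named genes are the 3 highest and lowest, the 3 largest called changes each way, the 5 most variable (1 of them is not reported here), those at the threshold, and RPLP0, RPS6, RPL5, RPL11 and RPS27A. RPL26 and the other genes named were chosen after their values were seen. Copy counts rest on the Ensembl canonical mRNA alone. The members and lists were chosen with earlier results of these data known.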

Additional observations from a re-analysis of the deposited data

Results flagged for a closer look

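For RPL41 the test of the difference between shHOXB13 and shCtrl cells in the effect of shp300/CBP just passed the threshold. Its change with shp300/CBP was lower in shHOXB13 than in shCtrl cells, with a difference of -1.17 on the log2 scale (limma adjusted p = 0.05 as rounded). The call was lost with a replicate block, with no filter on low values and without any 1 of the 8 libraries, and 5.59% of all genes were called lower in this test. RPL41 was at 187 and 189 FPKM in shHOXB13+shp300/CBP and 453 and 427 FPKM in shHOXB13 libraries, and at 672 and 655 FPKM in shCtrl+shp300/CBP and 716 and 663 FPKM in shCtrl libraries.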

How the results depend on the processing

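Of 227 alternative values of 20 named changes, 176 kept their direction and call, 51 kept the direction and lost the call, and 0 reversed. Counts of members called higher or lower moved as follows. Where no share of all genes stands beside a count, here or above, it shows only how far the count moved. Median-of-ratios scaling gave 1 higher and 1 lower for shp300 in shHOXB13 cells, 3 higher for shCBP in shHOXB13 cells, 28 lower for shp300/CBP in shCtrl cells, 3 higher and 2 lower for the interaction of the knockdown series, 1 higher and 6 lower for shHOXB13 under DMSO, 20 lower for CCS1477 in shHOXB13 cells and 4 lower for the CCS1477 interaction. Scaling every library to the same summed FPKM gave 2 higher for shp300 and 3 higher for shCBP in shHOXB13 cells, 8 higher for shp300/CBP in shHOXB13 cells, 1 higher for shp300/CBP in shCtrl cells, 5 higher and 2 lower for the knockdown interaction and 1 lower for CCS1477 in shHOXB13 cells. Asking also for a 1.5-fold change gave 1 higher for shp300/CBP in shHOXB13 cells, 11 lower for shCBP in shCtrl cells, 22 lower for shHOXB13 under DMSO and 0 lower for CCS1477 in shHOXB13 cells. No filter on low values gave 10 lower for shCBP and 7 for shp300/CBP in shCtrl cells, 0 for the knockdown interaction and 0 for CCS1477 in shHOXB13 cells. Fitting only the groups compared gave 1 higher for shp300/CBP in shHOXB13 cells, 6 lower for shCBP in shCtrl cells, 2 lower for the knockdown interaction and 16 lower for CCS1477 in shHOXB13 cells.

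The replicate block gave 10 lower for shCBP and 7 for shp300/CBP in shCtrl cells, 0 for the knockdown interaction and 2 higher for CCS1477 in shCtrl cells. In the knockdown series same-numbered libraries correlated by -0.36 to 0.26, so the numbers share only a name there. Crossing the numbers of shCtrl+shCBP gave 17 lower. For CCS1477 in shCtrl cells, the fit of those groups with the number as a block gave 4 higher and 1 lower, and with median-of-ratios scaling 1 higher and 1 lower. Leaving out the 2 libraries, chosen after seeing the data, gave 16 lower for CCS1477 in shHOXB13 cells, 3 higher and 1 lower in shCtrl cells and 3 lower for the CCS1477 interaction. With median-of-ratios scaling as well it gave 6 higher and 18 lower for shHOXB13 under DMSO, 61 lower for CCS1477 in shHOXB13 cells, 1 higher and 3 lower in shCtrl cells, and 26 lower for the interaction. The cause was not tested.

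Without 1 replicate at a time, the count of lower genes was 67 to 68 for shHOXB13, 2 to 8 for shp300/CBP and 0 for shCBP in shHOXB13 cells, 0 to 8 for shCBP and 1 to 7 for shp300/CBP in shCtrl cells, 0 for the knockdown interaction, 31 to 48 for shHOXB13 under DMSO, and 0 to 2 in shHOXB13 and 0 to 1 in shCtrl cells for CCS1477. That of higher genes was 0 to 2 for shp300/CBP in shHOXB13 cells, 0 to 1 for shp300 and for shp300/CBP in shCtrl cells, and 0 to 2 for CCS1477 in shCtrl cells. The mitochondrially encoded genes were not run, since no such symbol is listed in the files used here.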
